A study of Homo sapiens with 8 samples.

Results

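The genes described here are those whose symbol starts with SLC25A, the family of mitochondrial carriers, on arrays of A375 melanoma cells. The rule took probe sets (groups of short probes that report 1 transcript) paired with exactly 1 gene symbol, and kept for each gene the probe set with the highest mean log2 intensity over the 8 arrays. It gave 50 of the 19775 genes in the table. Of these, 45 are protein-coding carriers and 5 are the antisense RNAs SLC25A5-AS1, SLC25A21-AS1, SLC25A25-AS1 and SLC25A48-AS1 and the pseudogene SLC25A3P1, which share a symbol with a carrier but encode none. SLC25A6 and SLC25A52 were not analysed here.

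A375, an established line of human melanoma cells, has an activating mutation in the kinase BRAF. All 8 groups are this line after transfection with an siRNA, and each group is 1 array. In 5 groups the cells were kept for 18 h: in normal medium after a control siRNA (siCont), after knockdown of BRAF (siBRAF) or after knockdown of ATF4 (siATF4), and in glutamine-free medium after siCont or siBRAF. In the other 3 groups they were treated for 4 h: siCont cells with DMSO, and siCont or siATF4 cells with 10 uM of the BRAF inhibitor vemurafenib. Medium held 10% serum. The design sets BRAF, and ATF4, a transcription factor of amino acid stress, against the loss of glutamine and a BRAF inhibitor.

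SLC25 proteins sit mostly in the inner mitochondrial membrane and move one solute in exchange for, or together with, another. They carry nucleotides, phosphate, amino acids, di- and tricarboxylates, cofactors and metal ions between the cytosol and the matrix. Through them mitochondria export citrate for lipid synthesis, trade aspartate for glutamate in the malate-aspartate shuttle, and take in glycine and iron for haem and ADP for ATP synthesis.

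Median intensity was 14.8 to 15.5 on the 5 arrays with the change of medium and 36.4 to 36.9 on the 3 with DMSO or vemurafenib, so levels were compared only within each set. ATF4 had an intensity of 1814 in siCont and 534 in siATF4 cells in normal medium, and of 4548 and 757 in vemurafenib. BRAF itself was not analysed here, so no check of siBRAF on its target was made. Of 8 melanoma and melanocyte lineage markers, SOX10, MITF, TYR, S100A1 and S100B were at or above the array median on all 8 arrays, and MLANA and TYRP1 were below it on all 8. Among markers of other cell types EPCAM, CDH1, PTPRC and CDH5 were below it on all 8, while KRT5, KRT14, CD3E and PECAM1 were at or above it on all. Between 3' and 5' probes for actin, which report on RNA integrity, the gap was 0.16 to 0.28 (log2) in the medium set, highest on the siCont glutamine-free array, and -0.18 to -0.0017 in the drug set. Its part in the results below was not tested. RNA came from whole cultures, so fewer cells with a transcript and less of it per cell cannot be told apart.

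Every difference below is a log2 difference of log2(intensity + 1) between 2 arrays, with no replicate and therefore no test and no p-value. A gene counted as tested where the higher of the 2 values was at or above its array's median over all probe sets, and as apart where the difference was at least 2-fold (1 on the log2 scale). The range over all genes tested in the same pair of arrays is the only yardstick of size that these data give. Of the 50 genes, 40 passed this filter in at least 1 of the 7 pairwise comparisons, and 10 never did: SLC25A2, SLC25A18, SLC25A31, SLC25A41, SLC25A47, SLC25A48, SLC25A53, SLC25A3P1, SLC25A5-AS1 and SLC25A48-AS1. These 10 lay below the array median on all 8 arrays, and 37 of the 50 lay at or above it on all 8. In all, by the 1 probe set used per gene, 10 genes, 9 of them carriers, were at least 2-fold apart in 1 or more comparisons. The other 30 tested genes stayed within 0.92 (SLC25A33, siBRAF against siCont without glutamine). Other probe sets of SLC25A12, SLC25A16 and SLC25A27, which are among these 30, were more than 2-fold apart in some comparisons. A probe set's intensity does not rank 1 gene's level against another's, so the text compares each gene only with itself.

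**Figure D1:**
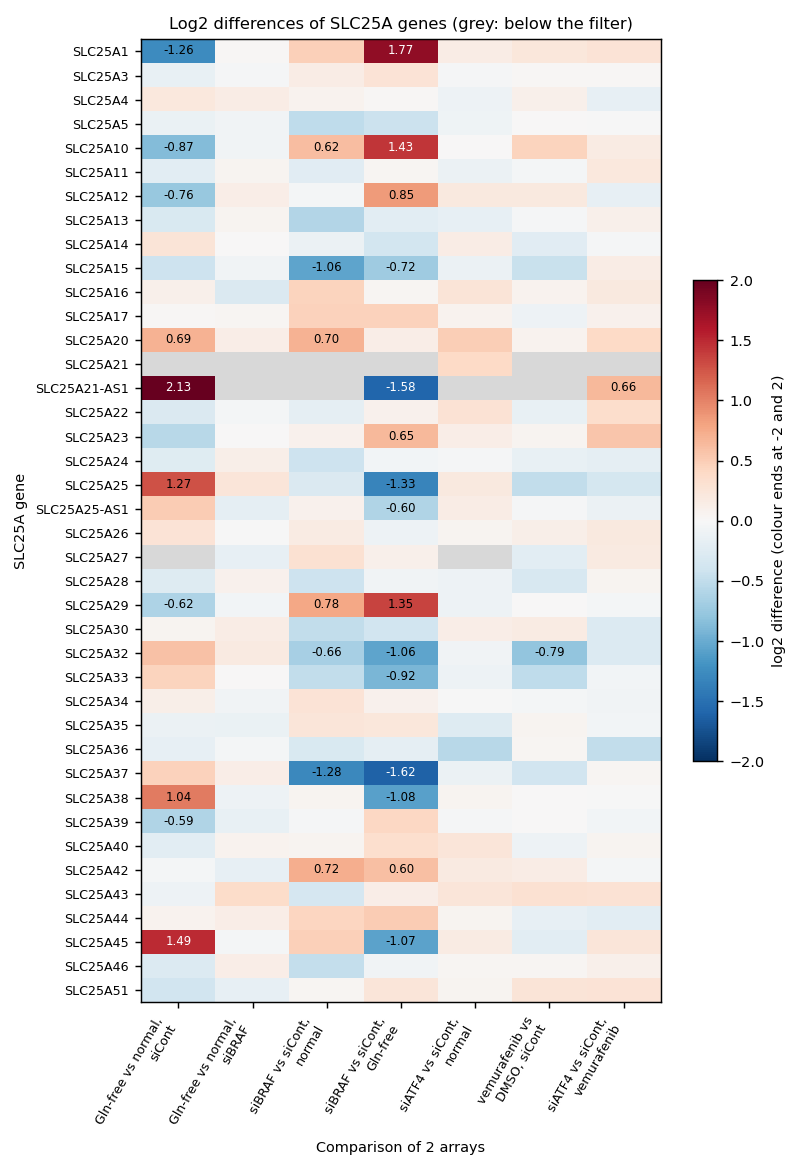
Heat map of log2 differences between 2 arrays (columns, the 7 pairwise comparisons) for the 40 SLC25A genes (rows) that passed the filter in at least 1 of them; grey cells did not pass, and numbers are printed where the difference is at least 1.5-fold. The strongest colours lie in the glutamine response of siCont cells and in the siBRAF columns, from 2.13 for SLC25A21-AS1 to -1.62 for SLC25A37.

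After glutamine withdrawal for 18 h in siCont cells 5 members were at least 2-fold apart. Higher without glutamine were SLC25A45 (2.81-fold), SLC25A25 (2.41-fold), which exchanges ATP-Mg for phosphate, and SLC25A38 (2.05-fold), which imports glycine for haem synthesis. The antisense RNA SLC25A21-AS1 stood 4.36-fold higher. Lower was the citrate carrier SLC25A1 (2.40-fold). Among the 38 genes tested, 4 lay at least 2-fold above normal medium and 1 below it, 13.2% in all. Of the 13355 genes tested in this pair, 13.0% were apart, 5.76% higher and 7.22% lower, so the family's share is near the background. At least 1.5-fold apart were 10 of the 38, or 26.3%, against 30.0%. The lineage marker S100B (-1.39) and the epithelial marker KRT14 (-1.003) were also at least 2-fold lower on this array, and their part in the differences was not tested. The 38 had a median difference of -0.11, all 50 one of -0.021, and all genes tested one of -0.045.

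SLC25A25 read 67.9 with siCont in normal medium and 165 without glutamine, 55.2 and 65.3 with siBRAF in the same media, and 78.2 with siATF4 in normal medium. Only the siCont glutamine-free array stood apart. In that comparison 3.58% of all genes tested were as high as or higher than SLC25A25, at a difference of 1.27. The antisense transcript from the same locus, SLC25A25-AS1, differed by 0.50, with intensities of 21.5 and 30.9. Its family relatives SLC25A23 (-0.55) and SLC25A24 (-0.24) differed the other way.

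SLC25A38 read 200.1 in siCont and 208 in siATF4 cells in normal medium, 209 and 194 in siBRAF cells with and without glutamine, and 412 in siCont cells without glutamine. The other 4 arrays of the set thus lay within a narrow band, and the siCont glutamine-free array lay above all of them. SLC25A45 was also highest on that array, with 119 there and 41.5 to 57.9 on the other 4. Its second probe set did not pass the filter, and with the mean of both probe sets the difference was 0.64, under 2-fold, and that with siBRAF without glutamine -0.26. For SLC25A21-AS1 the 4 other arrays read 7.07 to 13.8, below the array median, against 34.2 without glutamine in siCont cells, and with log2(intensity + 16) its difference was 1.12 in place of 2.13.

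Of the 3 di- and tricarboxylate carriers tested, 1 was at least 2-fold lower. SLC25A1, which exports citrate, had an intensity of 341 in normal and 141 in glutamine-free medium in siCont cells, a difference of -1.26. With siBRAF it read 474 and 484, and with siATF4 in normal medium 377, so the siCont glutamine-free array was the lowest of the 5. SLC25A10, the dicarboxylate carrier, was also lowest on that array, with 95.8 and 51.9 in siCont, 148 and 141 in siBRAF and 95.8 in siATF4 cells. Its difference of -0.87 was 1.83-fold, just outside the 2-fold line. The oxoglutarate carrier SLC25A11 differed by -0.21, and SLC25A21, the oxoadipate carrier, was below the array median in both media.

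The amino acid carriers differed in both directions. The aspartate/glutamate carrier SLC25A12 was 1.69-fold lower without glutamine in siCont cells (97.1 against 57.1), and its second probe set gave -1.33. Its paralog SLC25A13 differed by -0.30, and the glutamate carrier SLC25A22 by -0.30. Other probe sets of SLC25A13 gave -0.030 and 0.10 here, so no direction is given for it in this comparison. The basic amino acid carrier SLC25A29 was at -0.62, the ornithine carrier SLC25A15 at -0.41 and SLC25A44, which carries branched-chain amino acids, at 0.065. Of the enzymes that work with SLC25A11, SLC25A12 and SLC25A13 in the malate-aspartate shuttle, the cytosolic aspartate aminotransferase GOT1 was at 2.29, while GOT2 was at -0.18, MDH1 at -0.49 and MDH2 at -0.019. GOT1 thus differed in the opposite direction to SLC25A11 and SLC25A12, while cytosolic MDH1 differed in the same direction as these carriers.

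The carriers of bulk energy metabolism differed little by the probe set used for each gene. For the ADP/ATP carriers SLC25A4 and SLC25A5 the glutamine differences in siCont cells were 0.20 and -0.14, and for the phosphate carrier SLC25A3 the difference was -0.15. SLC25A5 read 4074 and 3704, and SLC25A3 5798 and 5211. A second probe set of SLC25A3 gave -0.53. The carnitine carrier SLC25A20, which brings fatty acids to oxidation, was 1.61-fold higher (125 against 203). SLC25A39, the glutathione carrier, was 1.51-fold lower (328 against 217), and SLC25A40 differed by -0.21. Among cofactor and nucleotide carriers SLC25A32, for folate and FAD, was at 0.58 and SLC25A33, for pyrimidine nucleotides, at 0.44, both just under 1.5-fold or less.

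**Figure D2:**
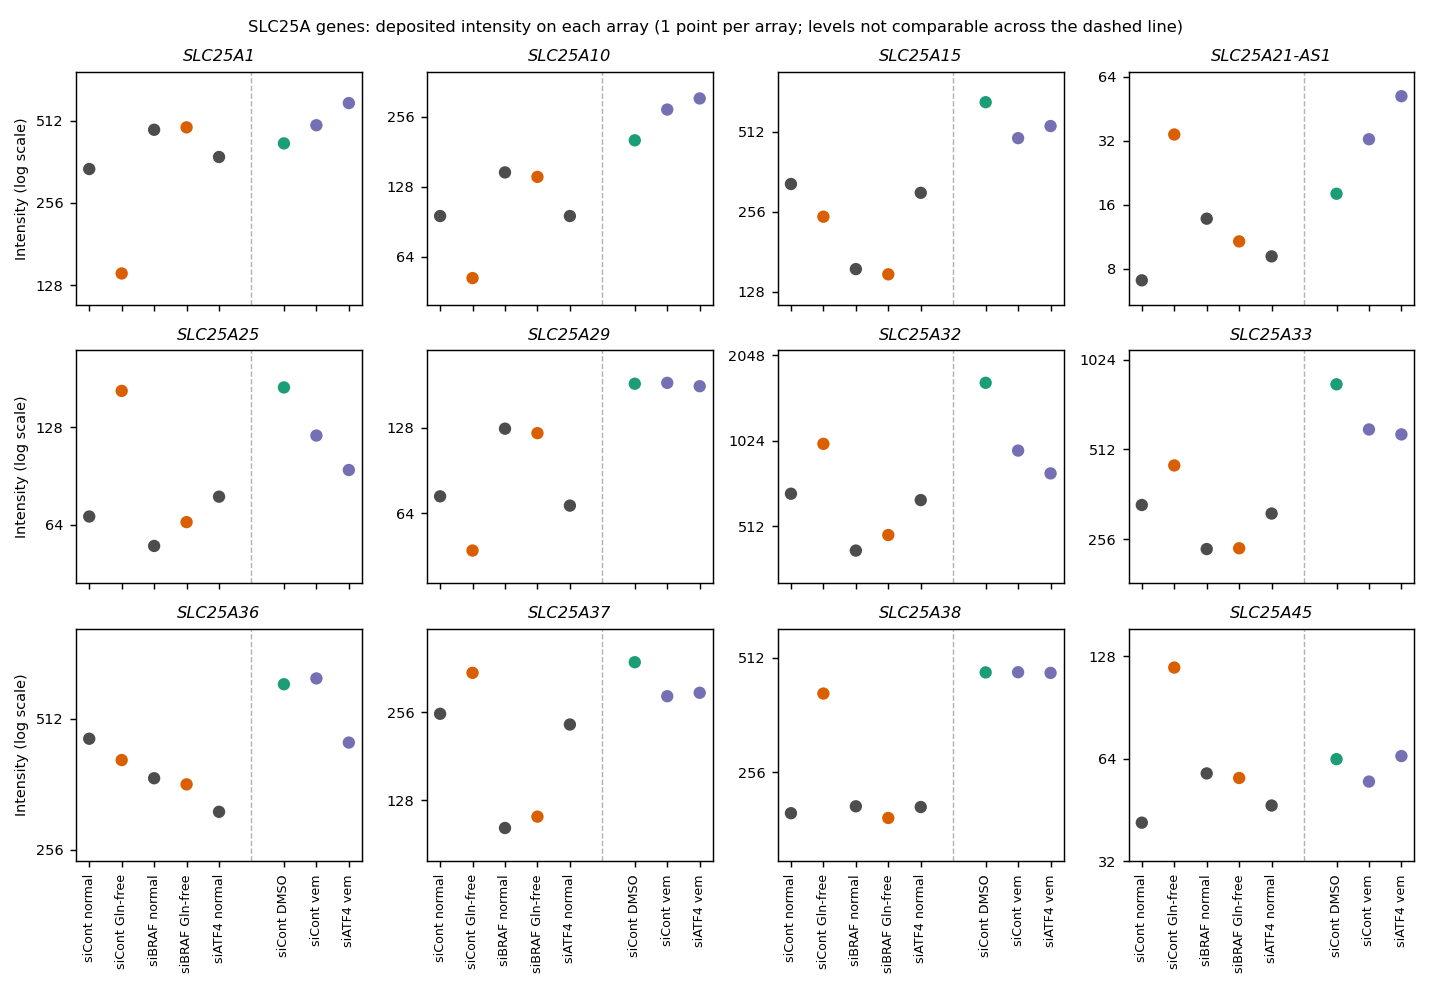
Deposited intensity (log axis) of 12 SLC25A genes on each of the 8 arrays, 1 point per array; points left and right of the dashed line belong to array sets of different scale and are not comparable. The siCont glutamine-free array is the highest of its set for SLC25A25, SLC25A38 and SLC25A45 and the lowest for SLC25A1 and SLC25A10, and both siBRAF arrays are the lowest for SLC25A15, SLC25A32, SLC25A33 and SLC25A37.

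Glutamine withdrawal in siBRAF cells left every tested member within 2-fold. The 38 genes tested ran from -0.29 (SLC25A16) and -0.19 (SLC25A25-AS1) to 0.24 (SLC25A25) and 0.37 (SLC25A43), with 0 at least 2-fold apart against 0.122% of 13138 genes, so a count of 0 is near the background. The count at 1.5-fold was also 0, against 1.29%. SLC25A38 stood at -0.10, SLC25A45 at -0.044, SLC25A1 at 0.029 and SLC25A10 at -0.064. The difference between the glutamine responses, siBRAF minus siCont, was at least 2-fold for 5 of the 39 genes tested, against 13.2% of 13715 genes (7.55% higher and 5.69% lower). These were SLC25A1 at 1.29, SLC25A25 at -1.03, SLC25A38 at -1.14, SLC25A45 at -1.54 and SLC25A21-AS1 at -2.45. They are the same 5 genes that were apart without glutamine in siCont cells. SLC25A21-AS1 passed the filter only through the siCont glutamine-free array, and both its siBRAF values lay below the array median. With log2(intensity + 16) it was at -1.275. At 1.5-fold there were 8, against 31.0%. The difference between the responses uses 4 arrays, among them the siCont pair above. For these 5 genes it is therefore not a separate observation, and no test was possible.

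The promoters of 2 carriers that were higher and 1 that was lower without glutamine in siCont cells alone are shown as the 250 bases before the RefSeq start, in build GRCh38.p14 and 5′ to 3′ along the gene. Windows were found for 42 of the 50 genes. Capitals mark matches, on either strand, to the cyclic AMP response element TGACGTCA, which ATF and CREB proteins bind, to the E-box CACGTG, bound by MYC and its relatives, to the ETS core CCGGAAG, to the C/EBP-ATF element TGATGNAA, or to the consensus element of NRF1, a regulator of mitochondrial genes. None of these matches overlapped another.
SLC25A25 (chr9:128098257-128098506, plus strand): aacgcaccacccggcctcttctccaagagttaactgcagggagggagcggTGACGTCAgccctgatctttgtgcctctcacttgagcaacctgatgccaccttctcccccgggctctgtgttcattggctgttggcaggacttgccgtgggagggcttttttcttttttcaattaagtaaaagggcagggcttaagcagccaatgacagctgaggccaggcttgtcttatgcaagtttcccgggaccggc
SLC25A38 (chr3:39383120-39383369, plus strand): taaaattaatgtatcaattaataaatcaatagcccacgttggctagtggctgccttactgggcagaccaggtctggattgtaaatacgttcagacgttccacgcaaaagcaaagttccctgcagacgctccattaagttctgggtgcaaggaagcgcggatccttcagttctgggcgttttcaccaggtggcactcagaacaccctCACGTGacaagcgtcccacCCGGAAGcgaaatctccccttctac
SLC25A1 (chr22:19178737-19178986, minus strand): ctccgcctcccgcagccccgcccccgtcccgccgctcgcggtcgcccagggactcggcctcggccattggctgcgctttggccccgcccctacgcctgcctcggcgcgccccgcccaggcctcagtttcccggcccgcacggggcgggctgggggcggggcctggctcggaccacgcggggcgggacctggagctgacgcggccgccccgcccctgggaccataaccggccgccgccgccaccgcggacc
The window of SLC25A25 holds a TGACGTCA from 200 to 193 bases before the start, that of SLC25A38 holds an E-box and an ETS core close to the start, and that of SLC25A1 holds none of the 5. SLC25A45 and SLC25A21-AS1 were also at least 2-fold higher without glutamine in siCont cells. Their windows, not shown, hold none of the 5 either. Over the family, TGACGTCA was present in 3 of 42 windows (7.14%, SLC25A25, SLC25A33 and SLC25A36) against 1.77% of 27305 windows of the same length, and the E-box in 7 (16.7%) against 6.49%. The 27305 windows were not limited to protein-coding genes, while most of the 42 belong to such genes. The ETS core was in 8 (19.0%) against 8.82%, TGATGNAA in 1 (2.38%, SLC25A11) against 3.19%, and the NRF1 element in 0 against 2.56% with either pyrimidine at its variable base, but in 3 (7.14%) against 5.53% with any base there. CCAAT, left in lower case, was in 18 (42.9%) against 33.0%. A match is a description of these letters, not a site.

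Lower after BRAF knockdown in normal medium were the iron carrier SLC25A37 and the ornithine carrier SLC25A15, at -1.28 and -1.06. Without glutamine the lower group was larger: SLC25A37 (-1.62), SLC25A21-AS1 (-1.58), SLC25A25 (-1.33), SLC25A38 (-1.08), SLC25A45 (-1.06) and SLC25A32 (-1.06). These 6 became 4 under quantile normalization, with SLC25A32 at -0.97 and SLC25A38 at -0.996. They also became 4 with log2(intensity + 16), with SLC25A21-AS1 at -0.91 and SLC25A45 at -0.90. Higher without glutamine were SLC25A1 (1.77), SLC25A10 (1.43) and SLC25A29 (1.35). This comparison reuses the siCont glutamine-free array of the glutamine comparison above. On that array the 6 lower genes were at their highest in the medium set, and these 3 at their lowest. The values of SLC25A1, SLC25A25, SLC25A38, SLC25A45 and SLC25A21-AS1 are thus not observations separate from those above. In normal medium SLC25A25, SLC25A38 and SLC25A45 were at -0.30, 0.060 and 0.47 with siBRAF. In normal medium 0 of 38 genes tested lay at least 2-fold above siCont and 2 below it, 5.26% against 14.8% of 13346 genes (7.16% higher and 7.61% lower). In glutamine-free medium 3 of 39 were higher and 6 lower, 23.1% against 23.7% of 13496 (12.8% higher and 10.9% lower). At 1.5-fold the counts were 7 and 15, or 18.4% and 38.5%, against 31.5% and 42.8%. The medians were 0.047 and 0.033, beside -0.0059 and 0.020 for all genes tested. The lineage markers MITF, S100A1 and S100B, 3 of the 8, were also at least 2-fold higher with siBRAF in normal medium, and S100A1 (1.71) and S100B (3.25) without glutamine. The summed intensity of the 8 ranged from 941 to 3084 over the medium set and from 1851 to 2006 over the drug set. Their part in the differences was not tested.

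**Figure D3:**
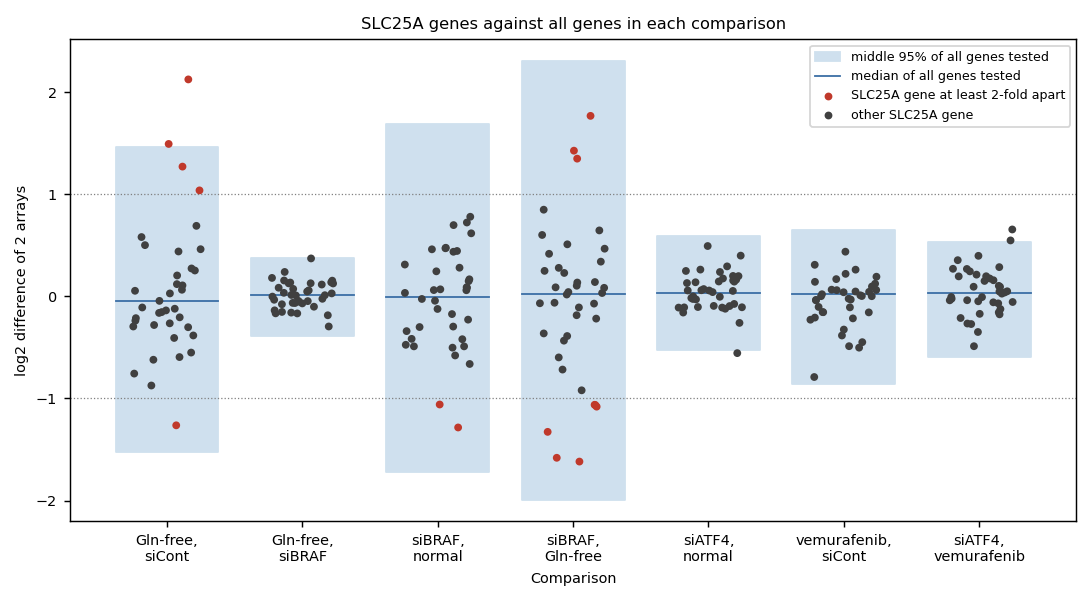
Log2 differences of the SLC25A genes that passed the filter (points; red where at least 2-fold apart) in each of the 7 comparisons, over the middle 95% of all genes tested (blue) and their median (line). The points lie within the blue range in most comparisons, with 2 outside it in the glutamine comparison of siCont cells, 1 with siATF4 in normal medium and 2 with siATF4 in vemurafenib.

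SLC25A37, mitoferrin 1, which brings iron into the matrix, read 252 and 348 in siCont cells with and without glutamine and 103 and 113 in siBRAF cells, while siATF4 cells in normal medium read 232. The siBRAF arrays were thus below the other 3 in both media. It has 10 probe sets, of which 8 passed the filter in both siBRAF comparisons, and all 8 were lower with siBRAF in both, from -0.14 to -1.28 in normal medium and from -0.11 to -1.67 without glutamine. With the mean of all its probe sets the differences were -0.76 and -0.98, both under 2-fold. The other mitoferrin, SLC25A28, stood at -0.42 and -0.071.

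SLC25A15, which links the mitochondrial and cytosolic steps of the urea cycle and of polyamine precursors by moving ornithine, read 326 and 245 in siCont and 156 and 149 in siBRAF cells. Its differences were -1.06 and -0.72, and a second probe set gave -1.02 and -0.74. The folate and FAD carrier SLC25A32 read 667 and 999 in siCont, 421 and 478 in siBRAF and 634 in siATF4 cells, with differences of -0.66 and -1.06. SLC25A33 read 333 and 453 against 237 and 239, at -0.49 and -0.92. These 3 carriers and SLC25A37 were lower with siBRAF in each medium. Among the mitochondrial folate enzymes that use the folate SLC25A32 delivers, SHMT2 (-1.01 and -1.91), MTHFD2 (-1.14 and -2.58) and ALDH1L2 (-1.34 and -3.81) were lower too, and MTHFD1L lay below the array median. Of all genes tested, 7.61% and 10.9% were at least 2-fold lower. In vemurafenib in siCont cells the 3 enzymes were higher (0.46, 0.62 and 2.14), while SLC25A32 was at -0.79. Without glutamine in siCont cells they were at 0.85, 1.46 and 3.11, and SLC25A32 at 0.58. With siATF4 in normal medium they were at -0.30, -0.47 and -2.46, and SLC25A32 at -0.074. With siATF4 in vemurafenib they were at -0.89, -1.255 and -3.22, and SLC25A32 at -0.27.

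SLC25A29 was the highest carrier with siBRAF in normal medium. It read 73.5 and 47.5 in siCont cells with and without glutamine, 127 and 122 in siBRAF cells and 68.2 in siATF4 cells. The differences were 0.78 and 1.35, and a second probe set gave 0.86 and 1.34. With the mean of all its probe sets the value without glutamine was 0.68, under 2-fold. SLC25A42, which imports coenzyme A, was at 0.72 and 0.60, and SLC25A10 at 0.62 and 1.43. SLC25A44 was at 0.44 and 0.51 and the peroxisomal carrier SLC25A17 at 0.46 and 0.47, each with a second probe set on the same side. Of the aspartate and glutamate carriers, SLC25A12 was at -0.043 and 0.85, the second value 1.80-fold and just outside the 2-fold line, SLC25A13 at -0.58 and -0.22 and SLC25A22 at -0.17 and 0.089. A second probe set of SLC25A12 gave -0.14 and 1.1, the latter over 2-fold. SLC25A11 was at -0.23 and 0.033. SLC25A20 was at 0.70 in normal medium and 0.14 without glutamine, where the siCont array was itself high. SLC25A5 was at -0.50 and -0.43, while SLC25A4 was at 0.069 and 0.018 and SLC25A3 at 0.15 and 0.28. A second probe set of SLC25A3 gave 0.17 and 0.85.

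The comparisons of siBRAF with siCont in the 2 media share no array. Over the 38 genes tested in both, 29 had the same sign, 16 higher and 13 lower, or 76.3%, beside 72.1% of 13131 genes. The correlation across the 38 was 0.64, beside 0.72 across all genes, as a description, since genes of 1 array are not independent. At least 1.5-fold apart in the same direction in both were SLC25A10, SLC25A29 and SLC25A42, higher, and SLC25A15, SLC25A32 and SLC25A37, lower.

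Vemurafenib for 4 h left all 38 tested members within 2-fold, against 2.78% of 13160 genes at least 2-fold apart. At 1.5-fold 1 member was apart, or 2.63%, against 7.75%. The lowest was SLC25A32, which read 1636 in DMSO and 946 in vemurafenib in siCont cells, and 786 in vemurafenib in siATF4 cells. Its difference of -0.79 was 1.73-fold, and 2.98% of all genes tested were as low or lower. SLC25A33 followed at -0.50 (847 against 598), SLC25A25 at -0.49 (169 against 120), SLC25A15 at -0.45 (661 against 484), SLC25A37 at -0.38 (378 against 290) and SLC25A28 at -0.33. The highest was SLC25A10 at 0.44 (203 against 275), then SLC25A43 at 0.31, and SLC25A1 was at 0.22. The median of the 38 was 0.0019, beside 0.025 for all genes tested.

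These 6 carriers at the low end in vemurafenib were also lower with siBRAF in normal medium, on other arrays: SLC25A32 at -0.66, SLC25A33 at -0.49, SLC25A25 at -0.30, SLC25A15 at -1.06, SLC25A37 at -1.28 and SLC25A28 at -0.42. The next lowest in vemurafenib were SLC25A14 (-0.23), SLC25A45 (-0.22) and SLC25A27 (-0.21). With siBRAF in normal medium they were at -0.12, 0.47 and 0.31, so the shared direction of the 6 depends on where the list stops. At the high end SLC25A10 was at 0.62 and SLC25A1 at 0.48 with siBRAF in normal medium, but SLC25A43 was at -0.34. For SLC25A37, all 8 probe sets that passed the filter were lower in vemurafenib, from -0.089 to -1.04, and the one that represents the gene was among the smaller of these. The vemurafenib and siBRAF comparisons share no array and differ in agent and time. Across the 38 genes tested in both, the correlation of the vemurafenib difference was 0.50 with the siBRAF difference in normal medium and 0.66 with that in glutamine-free medium, beside 0.39 and 0.34 across all genes. The same sign was found in 63.2% and 65.8% of the 38, beside 62.4% and 59.0% of all genes.

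**Figure D4:**
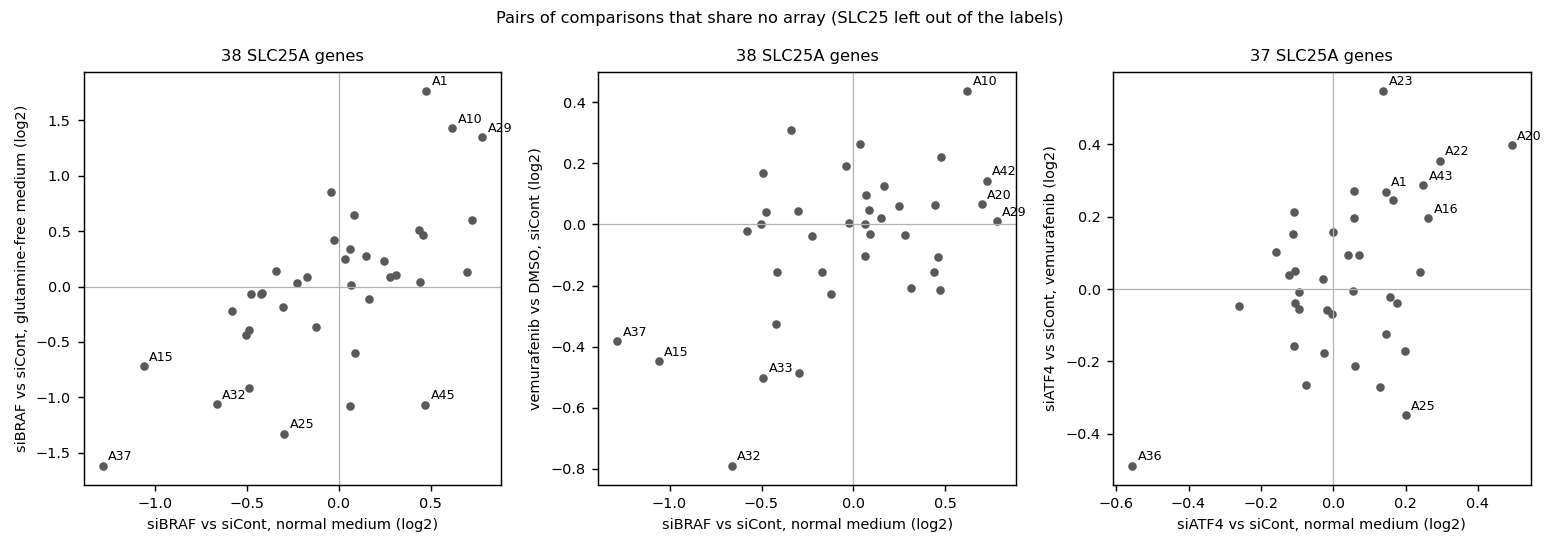
Log2 differences of the SLC25A genes in 3 pairs of comparisons that share no array, 1 point per gene, with the farthest points named (A1 stands for SLC25A1). SLC25A15, SLC25A32 and SLC25A37 lie in the lower left of the first and second panels, and SLC25A36 in the lower left of the third, where the axes are narrower.

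ATF4 knockdown left all tested members within 2-fold in both settings. In normal medium 0 of 38 were at least 2-fold apart, against 0.858% of 13170 genes, and in vemurafenib 0 of 39, against 0.934% of 13173. At 1.5-fold the counts were 0 and 1 (SLC25A21-AS1), against 4.5% and 4.33%. The medians were 0.055 and 0.038, beside 0.029 and 0.032 for all genes tested. The marker S100B was at -1.35 with siATF4 in normal medium and 0.23 in vemurafenib, and its part was not tested. The lowest member in both was SLC25A36, a pyrimidine nucleotide carrier, at -0.56 and -0.49. It read 461 with siCont and 313 with siATF4 in normal medium, and 634 against 452 in vemurafenib, while siCont cells in DMSO read 615. In each set the siATF4 array was the lowest. Of all genes tested, 2.03% and 3.58% were as low or lower.

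The 5 probe sets of SLC25A36 include 3 that passed the filter, and all 3 were lower with siATF4 in both settings, at -0.43, -0.56 and -0.56 in normal medium and at -0.47, -0.49 and -0.58 in vemurafenib. In siCont cells SLC25A36 differed by -0.16 without glutamine and by 0.044 in vemurafenib. With siBRAF it was at -0.30 in normal medium and -0.18 without glutamine.

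**Figure D5:**
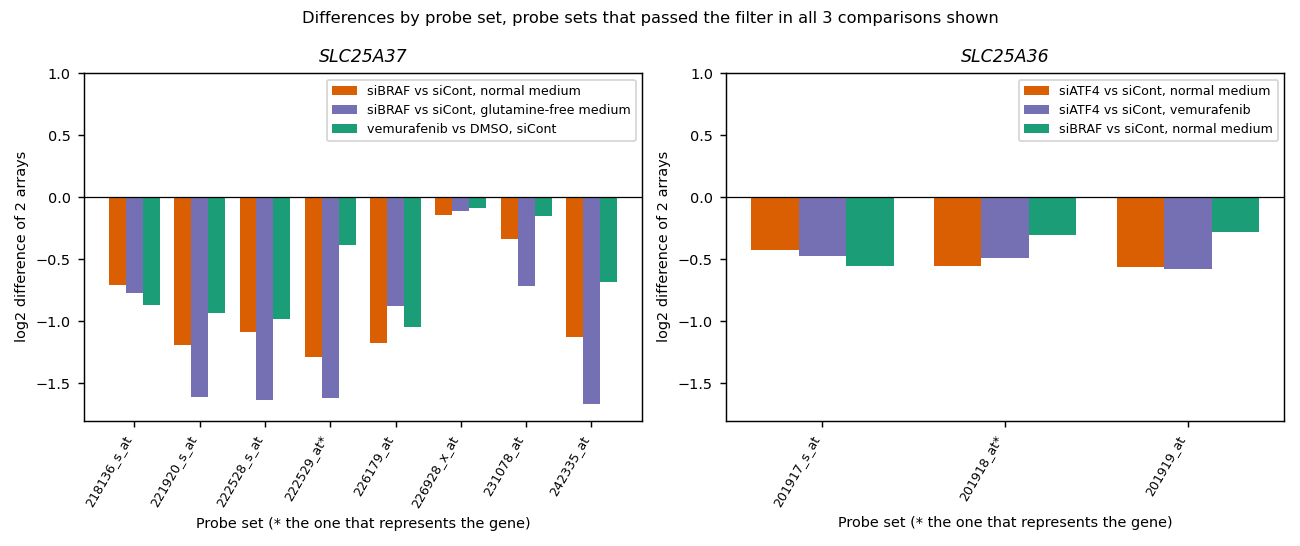
Log2 differences by probe set for SLC25A37 (left, 8 probe sets) and SLC25A36 (right, 3 probe sets) in 3 comparisons each; bars start at 0, and the asterisk marks the probe set that represents the gene. All bars are below 0, and 1 probe set of SLC25A37 shows the smallest differences, from -0.089 to -0.14.

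Of the 37 genes tested in both siATF4 comparisons 12 were higher in both and 10 lower in both. The 12 include SLC25A20 (0.49 and 0.40), SLC25A22 (0.29 and 0.35) and SLC25A43 (0.25 and 0.29), all under 1.5-fold. SLC25A21 was at 0.40 in normal medium, where it read 11.02 and 14.85, at the edge of the filter, and SLC25A35 was second lowest at -0.26. A second probe set of SLC25A35 gave 0.31 there, so no direction is given for it. SLC25A20 read 125 against 177 in normal medium and 292 against 385 in vemurafenib. SLC25A23 was at 0.14 and 0.55, and SLC25A21-AS1 was at 0.66 in vemurafenib, where it read 32.5 with siCont and 51.8 with siATF4, after 18.0 in DMSO. SLC25A25 was at 0.20 in normal medium and -0.35 in vemurafenib, where it read 169 in DMSO, 120 in siCont and 94.4 in siATF4 cells. SLC25A38 read 468 in DMSO and 469 and 467 in vemurafenib with siCont and siATF4. Its level hardly differed across these 3 arrays. The 37 genes tested in both had the same sign in 59.5%, beside 65.6% of 12589 genes, with a correlation of 0.46 beside 0.42.

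The promoter windows of SLC25A36 and SLC25A33, the other family members with TGACGTCA, are shown in the same way so that the 3 windows can be read side by side.
SLC25A36 (chr3:140941586-140941835, plus strand): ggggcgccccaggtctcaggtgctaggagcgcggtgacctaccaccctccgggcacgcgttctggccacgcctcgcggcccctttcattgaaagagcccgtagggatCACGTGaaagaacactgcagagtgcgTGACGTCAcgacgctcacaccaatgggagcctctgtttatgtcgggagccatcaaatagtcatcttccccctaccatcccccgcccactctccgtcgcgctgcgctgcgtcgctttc
SLC25A33 (chr1:9539215-9539464, plus strand): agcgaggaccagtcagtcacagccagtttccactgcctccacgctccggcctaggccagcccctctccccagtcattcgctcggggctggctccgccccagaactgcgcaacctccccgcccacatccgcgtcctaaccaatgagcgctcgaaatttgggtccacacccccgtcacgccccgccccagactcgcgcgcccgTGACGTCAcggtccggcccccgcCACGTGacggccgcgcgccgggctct
Both also hold an E-box. SLC25A36 was the lowest member with siATF4, SLC25A33 was at -0.095 and -0.055 there, and SLC25A25 was at 0.20 and -0.35. With siBRAF SLC25A36, SLC25A33 and SLC25A25 were at -0.30, -0.49 and -0.30 in normal medium and at -0.18, -0.92 and -1.33 without glutamine.

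By the probe set used for each gene, the remaining carriers varied less. SLC25A26, the S-adenosylmethionine carrier, ran from -0.11 to 0.27 over the 7 comparisons and read 225 to 272 in the medium set. The uncoupling protein relatives SLC25A14 and SLC25A30 were lower with siBRAF in both media, at -0.12 and -0.36 and at -0.49 and -0.39, while SLC25A27 lay at the array median in the medium set (13.8 to 17.6). Another probe set of SLC25A27 was at 1.26 with siBRAF in normal medium. SLC25A34 and SLC25A35, whose substrates are little known, stayed between -0.26 and 0.28, and a second probe set of SLC25A35 ran from -0.33 to 0.32. SLC25A40 ran from -0.21 to 0.34. For SLC25A16 3 of 4 probe sets passed the filter in siCont cells without glutamine, at 0.11, 1.29 and -0.15, and in siBRAF cells they were at -0.29, 0.38 and -0.23, so its probe sets disagree in sign in both. With siBRAF against siCont they were at 0.44, 0.82 and 1.15 in normal medium and at 0.042, -0.087 and 1.07 without glutamine.

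Proteins that assist or resemble the carriers were read from lists outside the family. Of 8 import factors that bring carriers to the inner membrane, the chaperone TIMM9 was at 1.01 without glutamine in siCont cells and TIMM10 at 0.36, and with siBRAF without glutamine they were at -1.12 and -1.25, 2 of 8 at least 2-fold lower, against 10.9% of all genes. TOMM40, the import pore, was at -1.07 with siBRAF in normal medium, and with siATF4 in either setting 0 of 8 were apart. Among carriers under other symbols UCP2 was at -0.95 and MTCH2 at -0.60 without glutamine in siCont cells. The pyruvate carrier subunits MPC1 and MPC2 and the pores VDAC1, VDAC2 and VDAC3 stayed within 2-fold in all 7 comparisons.

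Of the 5 sideroflexins, a separate family of mitochondrial carriers that includes the serine importer SFXN1, SFXN1 was lower with siATF4 in both settings, at -0.73 and -1.30. It read 369 against 221 in normal medium and 635 against 257 in vemurafenib. SFXN3 differed like SLC25A1: it was at -1.34 without glutamine in siCont cells, 0.050 in siBRAF cells and 2.11 with siBRAF without glutamine. SFXN2 was at -1.46 with siBRAF in normal medium.

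Of the 50 genes 28 have several probe sets, which give a second reading from the same arrays. In the siBRAF comparison in normal medium, 29 other probe sets of 20 genes passed the filter, with a median gap of 0.14 to the one used and a largest gap of 1.14, in SLC25A37. Across the 7 comparisons the median gap ran from 0.12 to 0.27. For SLC25A51, the NAD carrier, the probe sets disagreed in sign with siBRAF (0.034 and -0.78 in normal medium), and so did those of SLC25A46, an outer membrane protein of mitochondrial fission (-0.47 and 0.076), so no direction is given for either. Carriers with a single probe set, among them SLC25A1, SLC25A10, SLC25A25, SLC25A32, SLC25A33 and SLC25A38, have no such second reading.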

How the data were processed

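RNA from 8 cultures was labelled as biotin-cRNA from 5 ug of total RNA, per the labels' protocols, and hybridised to Affymetrix human arrays. The authors deposited linear intensities made with RMA, per the submitters' processing notes. The RMA version is not given in the sources used here. There are 54675 probe sets, of which 41097 carry 1 gene symbol in the platform annotation, 1801 several and 11777 none (62 array controls included). Symbols were updated through Entrez IDs, which matched RefSeq for 99.9% of the 41097. Whether RMA was run on all arrays together is not given in the sources used here, and the 2 array sets differ in scale. No further normalization was applied, and values were taken as log2(intensity + 1), which understates differences of low genes, with Python 3.11.15 and pandas 2.3.3. Filter and differences were tested on simulated data. With 1 array per group the number of arrays limits the precision, and no test was run. Named were genes at least 2-fold apart, the 2 highest and 2 lowest per comparison, and the ADP/ATP, aspartate and glutamate, and di- and tricarboxylate groups. Other members named were chosen after their values were seen. Proteins, which the plan would have printed, were not used here. The NRF1 element was searched with T, either pyrimidine or any base at 1 position, the wider forms after a first search. Alternatives were a constant of 16, no filter or the 75th percentile, other probe set rules, quantile normalization or equal medians within a set, and a fold of 1.5. The members and lists were chosen with earlier results of these data known.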

Additional observations from a re-analysis of the deposited data

Results flagged for a closer look

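Some genes were at least 2-fold apart in 1 background and had the opposite sign in the other, each from 1 pair of arrays, and the difference was not tested. Without glutamine SLC25A1 was at -1.26 in siCont and 0.029 in siBRAF cells, SLC25A38 at 1.04 and -0.10, and SLC25A45 at 1.49 and -0.044. With siBRAF SLC25A38 was at 0.060 in normal and -1.08 in glutamine-free medium, and SLC25A45 at 0.47 and -1.06. The values near 0 carry no direction of their own. Both contrasts use the same 4 arrays, so the entries for SLC25A38 and SLC25A45 are not separate observations.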

How the results depend on the processing

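The 8 counts of genes at least 2-fold apart were recomputed under 8 alternatives and, chosen after seeing the data, without the antisense and pseudogene members. With a fold of 1.5 they became 10 for glutamine-free medium in siCont cells, 7 and 15 for siBRAF in normal and glutamine-free medium, 1 for vemurafenib, 1 for siATF4 in vemurafenib and 8 for the difference of the glutamine responses. The 2 genes with siBRAF in normal medium became 1 with log2(intensity + 16) and 1 with the mean of all probe sets, in each case by moving SLC25A15 or SLC25A37 just or well under the line. The other counts stayed within 1.5 times. Of 179 values of 2-fold genes under the alternatives 164 stayed at least 2-fold in the same direction, 15 fell under 2-fold and 0 changed sign. Much of this was fixed in advance. A fold of 1.5, the filter settings and leaving out antisense and pseudogene members do not alter a gene's value. Probe set rules leave a gene with 1 probe set unchanged or without a value. The 15 came from the constant of 16 (5 of 21 values), the mean of all probe sets (6 of 21) and quantile normalization (4 of 21). SLC25A38 without glutamine in siCont cells was at 0.95 under quantile normalization and 0.99 with log2(intensity + 16), so it stands at the line. Without shared probe sets SLC25A1 and SLC25A32 have no value. No paired analysis was possible because each group has 1 array and the labels give no replicate numbers.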
